A study of Mus musculus with 8 samples.

Results

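Small nucleolar RNAs and U-type RNAs were examined on arrays of newborn mouse aorta with and without Lox, the gene of lysyl oxidase, which crosslinks collagen and elastin. The members were the probe sets for which any symbol in the array's annotation begins with Snord, Snora, Scarna or Rnu. There were 145 such probe sets among 41345, of which 25335 carry a gene symbol. Probe sets with identical values on all arrays were counted once, which left 118 features. Of these, 65 were box C/D RNAs (Snord), 37 box H/ACA RNAs (Snora), 9 Cajal body RNAs (Scarna) and 7 U-type RNAs (Rnu). The classes follow the symbols, so U3, a box C/D RNA with Rnu symbols, was counted as U-type. Identical values merged 16 probe sets of the Snord116 cluster, 9 of U1 genes, 4 of U3 genes and 2 of Snora19. A single small RNA symbol stood on 84 features, several small RNA symbols on 4, and a small RNA together with another gene on 30. A value of one of those 30 cannot be assigned to the small RNA alone, so such a feature is named here with all its symbols.

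The study compared Lox knockout (KO) with wild-type (WT) pups at postnatal day 0, all on an albino C57BL/6J background, in 2 parts of the aorta. The ascending part ran from the aortic valve to the ductus arteriosus. The descending part ran from the vena cava to the diaphragm. Each of the 8 arrays measured total RNA of 1 pool of 8 pups of 1 genotype, with 2 arrays for each of the 4 combinations, so the small number of arrays limits the precision. The values are log2 intensities. A group of pools measures the spread between pools and not between animals, and the p-values below carry that limit. Whether ascending and descending pools came from the same pups was not stated. The model took all 8 pools as separate, and p-values over both segments rest on that. Because the pools held whole tissue, fewer cells of a type and less RNA per cell cannot be told apart. A probe set inside an intron likewise reads the mature small RNA and the unspliced transcript around it, which cannot be told apart here.

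Small nucleolar RNAs guide enzymes to bases of other RNAs. Box C/D RNAs, bound by fibrillarin with Nop56 and Nop58, guide ribose methylation, and box H/ACA RNAs, bound by dyskerin, guide pseudouridylation. Most act on ribosomal RNA in the nucleolus, Cajal body RNAs act on spliceosomal RNAs, and a few, among them U3, are needed to cut the ribosomal RNA precursor. In mammals most of them lie in introns of longer genes and are trimmed from the spliced-out intron, while U3 and the spliceosomal U RNAs have promoters of their own.

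The sequences of the small RNA genes themselves are not used here, but some of these genes contain a mature microRNA of RefSeq (build GRCm38.p6), which shows a stretch of the member itself. The 4 printed here lie inside members that were tested, with bases 2 to 8, the seed, in capitals.
miR-1843b-5p inside Scarna3a (chr1:159340362-159340382, + strand): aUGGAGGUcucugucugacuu
miR-1843a-5p inside Scarna3b (chr12:80391654-80391674, - strand): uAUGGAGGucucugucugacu
miR-3069-5p inside Scarna13 (chr12:105031117-105031140, - strand): uUGGCAGUcaagauauuguuuagc
miR-5121 inside Snord33 (chr7:45126925-45126945, - strand): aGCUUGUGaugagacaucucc
Each of these probe sets carries the symbol of its microRNA as well, and that of Snord33 also Rpl13a. None of the 4 passed the test in any comparison. Their differences between KO and WT over both segments lay between -0.29 for Scarna13 and 0.25 for Snord33.

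The genes that contain the small RNAs were printed at their first bases because many hosts of small nucleolar RNAs belong to the class that starts with a run of pyrimidines. The windows below run from 10 bases before to 20 bases after the start that RefSeq gives (GRCm38.p6), with the longest run of C and T that begins within 5 bases of the start in capitals. They belong to the containing genes of Snora62, Scarna10, Snord65, Snord35a and Snord11, in that order.
Rpsa (chr9:120127756-120127785, + strand): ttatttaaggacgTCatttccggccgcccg
Ncapd2 (chr6:125191567-125191596, - strand): tgtttggcgcgtaTCCTgccctattgtttt
2410006H16Rik (chr11:62602867-62602896, + strand): cgccgTCTTTCTCTgcggccatcatgggat
Rpl13a (chr7:45128726-45128755, - strand): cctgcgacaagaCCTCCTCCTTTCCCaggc
Nop58 (chr1:59684996-59685025, + strand): gctgctccaCgaggagaggtgtggagcggc
A run of at least 5 such bases stood in 2 of the 9 containing genes of rising members that had 1 window, and in 22.0% of 32851 windows over all genes. The 2 genes were 2410006H16Rik, with 9 bases, and Rpl13a, with 14. Runs that begin more than 5 bases from the start were not counted, and the windows of Rpsa and Rps12 hold such runs. The count therefore depends on that limit and cannot show which genes belong to the class. The runs are a description of these letters on the strand of the gene and not of the factors that read them.

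Lox itself was 11.47 and 11.60 on the WT ascending arrays and 8.87 and 8.74 on the KO ascending arrays, and 11.41 and 11.24 against 8.56 and 8.51 in the descending segment, so each array followed its label. The median of an array, taken over every probe set, was 5.11 to 5.19. Smooth muscle markers, which define the aortic wall, averaged 10.07 to 10.28 on every array. Markers of other cells moved with genotype. The mean over 9 neutrophil markers was 5.14 to 5.86 on the WT arrays and 6.24 to 6.77 on the KO arrays, and 7 of 9 rose over both segments. The mean over 7 markers of cycling cells was 8.08 to 8.27 against 8.48 to 8.86, and 4 of 7 rose. The mean over 6 liver markers was 5.78 to 6.73 against 7.14 to 8.85, and 5 of 6 rose. Of 7 macrophage markers 3 rose, and their mean was 7.59 to 7.88 against 8.0 to 8.25. In other lists members fell: 4 of 7 endothelial markers (mean 8.43 to 8.92 in WT and 8.08 to 8.58 in KO), 3 of 6 fat markers (6.71 to 8.15 and 6.31 to 7.30) and 1 of 4 lung markers were lower, while 1 of 4 erythroid markers rose. The part of these cells in the results below was not tested.

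Some arrays stood apart for the small RNAs. In the KO descending group replicate 2 was above replicate 1 for 78 of the 96 tested members (81.2%), while among all features tested the share was 46.2%. The median member lay 0.13 above its own mean over the 8 arrays on KO descending replicate 2, and 0.11 below it on replicate 1 (-0.11). In the other groups replicate 2 was the higher one for 40 (WT ascending), 60 (WT descending) and 57 (KO ascending) of 96 members. WT descending replicate 1 had the lowest median deviation of all arrays, at -0.15. KO descending replicate 2 also had the highest mean of liver markers, 8.85.

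**Figure D1:**
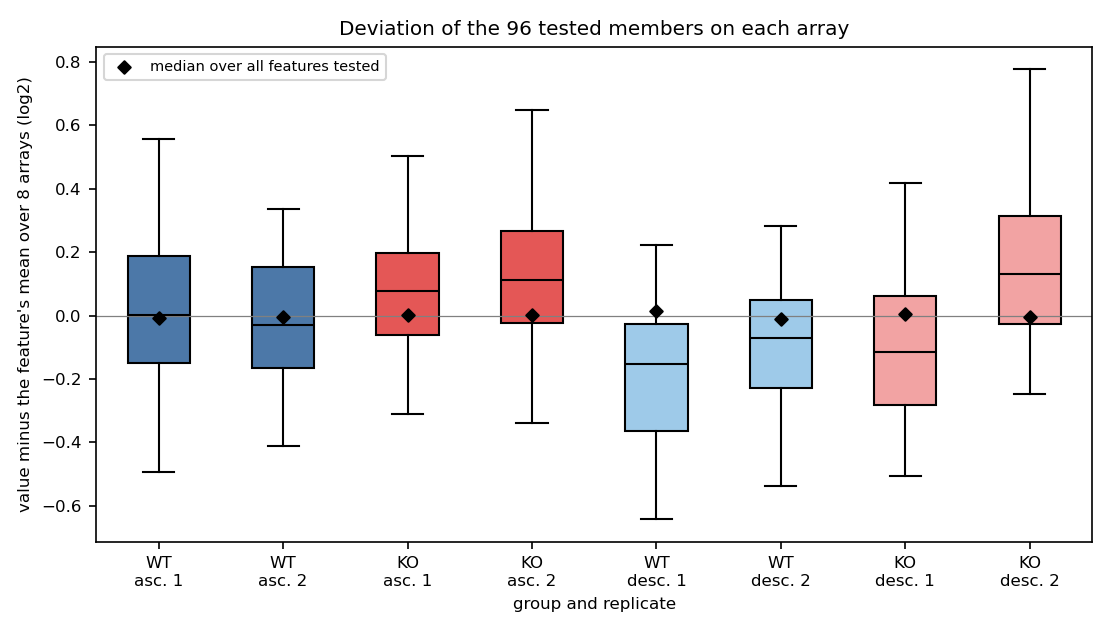
Deviation of the 96 tested small RNA members on each array, as the log2 value minus the member's mean over the 8 arrays; boxes span the quartiles of the members, whiskers leave out the most extreme members on each side, and diamonds are medians over all features tested. The members' medians run from -0.15 on WT descending replicate 1 to 0.13 on KO descending replicate 2, while the diamonds lie between -0.01 and 0.01.

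Of the 118 features, 96 had a mean of at least 4.15, the 25th percentile of all features with a symbol, and entered the test. They were 53 box C/D, 30 box H/ACA, 8 Cajal body and 5 U-type features, and 69 of them carried a single small RNA symbol. The other 22 lay below that level and are taken up at the end. That mean took in KO and WT arrays alike. A member low in WT could therefore enter through its KO values, as Snord110 and Snord52 did. Differences are log2 values, KO minus WT, from a linear model over all 8 arrays (limma), and a feature that rose or fell passed an adjusted p of 0.05 over all 18802 features tested (Benjamini-Hochberg).

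Small RNAs that changed between the genotypes were higher without Lox. In the ascending segment 3 members rose and 0 fell, against 1.8% of all features called. In the descending segment 5 rose and 0 fell, against 1.29%. Over both segments 13 of 96 members (13.5%) rose and 0 fell, against 9.63% of all features called and 5.21% called as higher. These were 8 of 53 box C/D, 2 of 30 box H/ACA, 1 of 8 Cajal body and 2 of 5 U-type features, and both of the latter were U3 values. Of the 13, Snord110 and Snord52 had entered the test through their KO values, and Snord52 was also among the 5 of the descending segment. The counts were not taken without them. In the fit without the level filter the count was 13 as well, 2 of them members below that level. The count over both segments rested on single arrays: it was 5 without WT descending replicate 1, 5 without KO ascending replicate 2 and 7 without KO descending replicate 2.

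The members as a whole did not shift evenly. Over both segments 57 of 96 were above 0 (59.4%, against 50.3% of all features), with a median of 0.05 against 0.00. Without KO descending replicate 2 the share was 47.9% and the median -0.02, and without replicate 1 of that group it was 68.8% and 0.11. In the descending segment alone the same pair of arrays moved the share from 45.8% without replicate 2 to 76.0% without replicate 1. The sign of the median member thus went with 1 array, while the members described next kept a positive difference whichever array was left out.

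**Figure D2:**
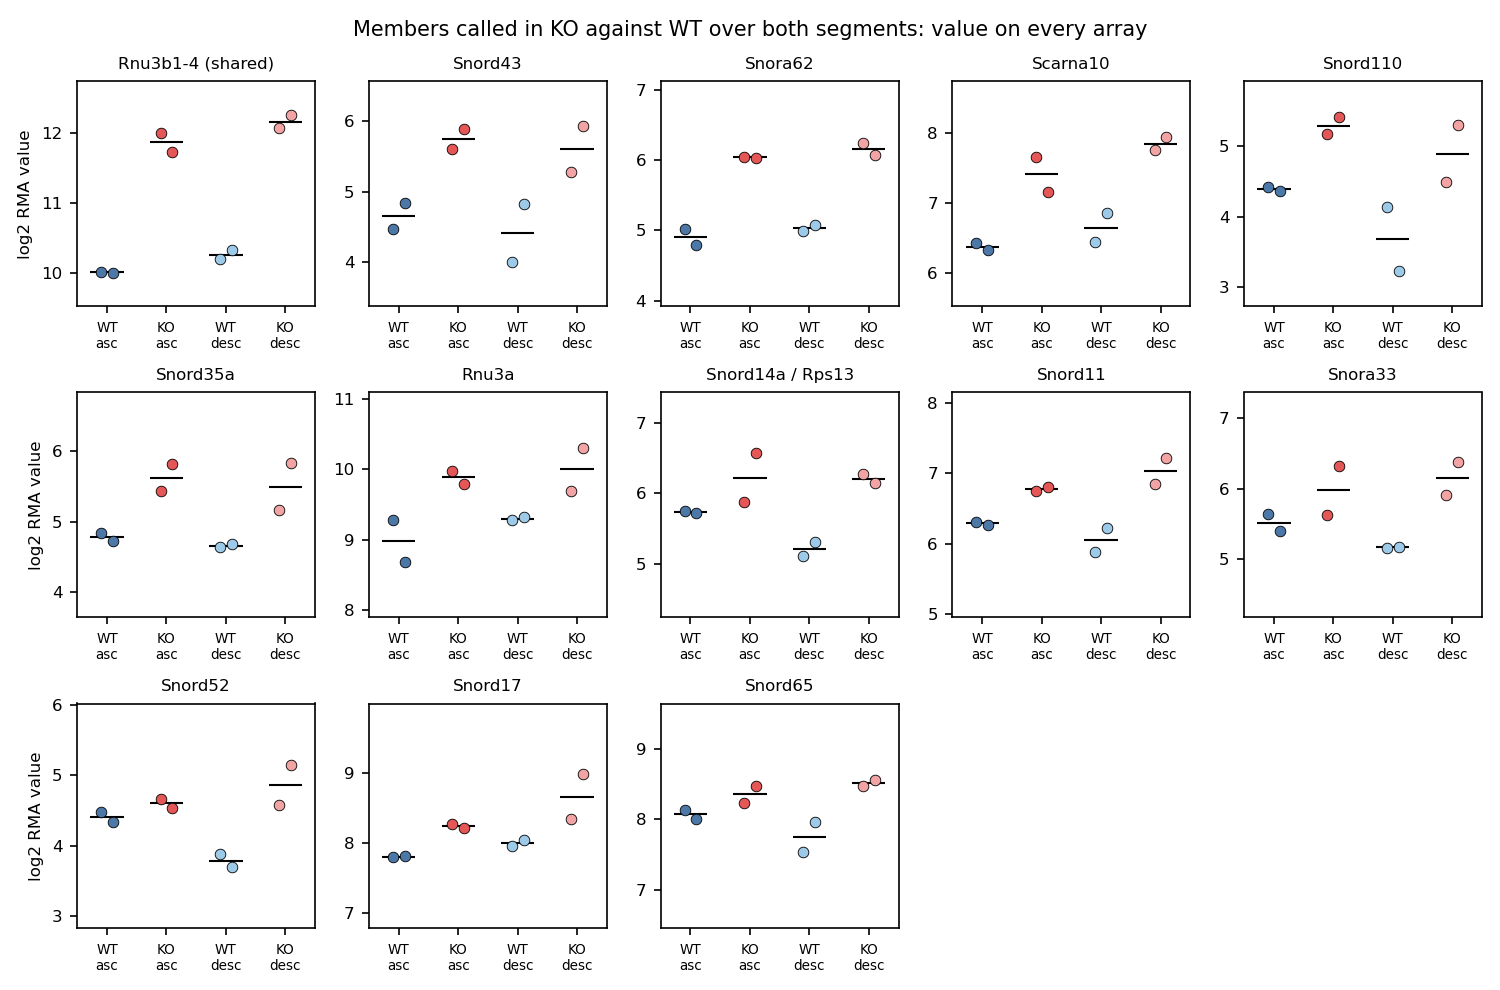
Log2 value on every array for the 13 members that rose in KO over both segments, with each group's mean as a bar; every panel spans the same number of log2 units, but levels differ between panels. All 4 KO arrays lie above all 4 WT arrays for 12 of the 13, and Snora33 is the exception.

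Among the U-type RNAs, the largest change belonged to U3, the box C/D RNA that guides the first cuts of the ribosomal RNA precursor. The mouse has several U3 genes, and 4 of them (Rnu3b1 to Rnu3b4) share 1 value. That value was 10.02 and 10.01 on the WT ascending arrays and 12.00 and 11.72 on the KO ascending arrays. Its descending values were 10.20 and 10.33 in WT and 12.06 and 12.25 in KO. The genotypes did not overlap in either segment, and the lowest KO array was over 1 log2 unit above the highest WT array. The difference was 1.85 (SE 0.13, a 3.60-fold rise, adjusted p 0.00200) in the ascending segment. It was 1.89 (SE 0.13, 3.71-fold, adjusted p 0.00281) in the descending segment. Over both it was 1.87 (SE 0.09, 3.65-fold, adjusted p 0.000251), the 8th largest rise of 18802 features. Its call over both segments held in all 15 other settings, and in the ascending segment in 15 of 16.

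Rnu3a, a further U3 gene with its own probe set, moved the same way by less. It was 9.28 and 8.68 in WT ascending and 9.98 and 9.80 in KO ascending. The descending values were 9.28 and 9.32 in WT and 9.70 and 10.30 in KO. No KO array was as low as any WT array. The rise over both segments was 0.80 (SE 0.17, adjusted p 0.0256), and the call held in 9 of 16 other settings and in 2 of 8 that left out an array. The rise of the Rnu3b value exceeded that of Rnu3a by 1.07 (SE 0.15, adjusted p 0.00799).

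The remaining U-type RNAs did not pass the test. Rnu11 and Rnu12, RNAs of the minor spliceosome that removes a rare class of introns, differed by 0.10 (adjusted p 0.687) and 0.17 (adjusted p 0.262) over both segments. The shared value of Rnu1b1, Rnu1b2 and Rnu1b6, which stand for U1, the RNA that recognises the start of introns, differed by 0.34 (adjusted p 0.317). It was 6.12 to 6.40 on the WT arrays and 6.17 to 7.11 on the KO arrays, so the genotypes overlapped. Snord118 and Snord13, known as U8 and U13, act in ribosomal RNA maturation and have their own promoters like U3. They stood lower in KO without passing, by -0.41 (adjusted p 0.166) and -0.44 (adjusted p 0.0894).

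Box C/D RNAs gave 8 of the 13 rises. Snord43 showed the largest difference among them. It was 4.46 and 4.84 in WT ascending, 5.60 and 5.89 in KO ascending, 4.0 and 4.82 in WT descending and 5.28 and 5.93 in KO descending. The genotypes did not overlap, although the WT descending arrays lay well apart from each other. The rise over both segments was 1.14 (SE 0.21, adjusted p 0.0187). In the ascending segment alone it was 1.09 (SE 0.30, adjusted p 0.114) and did not pass, though it did with the replicate number as a block (adjusted p 0.0353).

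Snord35a lies in the ribosomal protein gene Rpl13a. It was 4.84 and 4.73 in WT ascending, 5.44 and 5.82 in KO ascending, 4.64 and 4.67 in WT descending and 5.17 and 5.83 in KO descending. The WT arrays stayed within a narrow band and every KO array lay above it. The rise over both segments was 0.84 (SE 0.15, adjusted p 0.0167), and it was 0.84 in each segment alone, where it did not pass (adjusted p 0.0939 and 0.103). The call over both segments held in 11 of 15 other settings, as did that of Snord43.

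Snord11, which lies in Nop58, was 6.31 and 6.26 in WT ascending, 6.75 and 6.81 in KO ascending, 5.88 and 6.22 in WT descending and 6.85 and 7.22 in KO descending. The rise was 0.99 in the descending segment (SE 0.16, adjusted p 0.0397) and 0.74 over both (SE 0.11, adjusted p 0.00995). In the ascending segment it was 0.49 (adjusted p 0.157). The call over both segments held in 15 of 16 other settings, whereas the descending call held in 6 of 17 and in none of the 8 that left out an array.

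Snord52 differed more between the genotypes in the descending segment. It was 4.48 and 4.34 in WT ascending and 4.67 and 4.54 in KO ascending, but 3.88 and 3.69 in WT descending against 4.58 and 5.15 in KO descending. The genotypes were close in the ascending segment and well apart in the descending one. The difference was 0.20 (adjusted p 0.618) in the ascending segment and 1.08 (SE 0.18, adjusted p 0.0443) in the descending segment. The change in the difference between segments was -0.88 (SE 0.26) and did not pass (adjusted p 0.875). The rise over both segments was 0.64 (SE 0.13, adjusted p 0.0232). The descending call held in 5 of 16 other settings and in 1 of 8 that left out an array, and the call over both segments in 9 of 15 and in 3 of 8.

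The probe set shared by Snord14a and Rps13 was 5.76 and 5.72 in WT ascending, 5.88 and 6.57 in KO ascending, 5.10 and 5.31 in WT descending and 6.27 and 6.15 in KO descending. Snord14a is a copy of U14, which takes part in making the RNA of the small ribosomal subunit. The genotypes did not overlap, but 1 KO ascending array lay just above the highest WT array. The rise over both segments was 0.75 (SE 0.14, adjusted p 0.0205), and that of the descending segment, 1.00 (SE 0.20), just missed the threshold (adjusted p 0.0599). The call over both segments held in 10 of 15 other settings.

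A further 3 box C/D members rose over both segments and are named although they fell outside the naming rule, so they were chosen after their values were seen. Snord110 differed by 1.06 (SE 0.23, adjusted p 0.0296), from 3.23 to 4.42 on the WT arrays to 4.49 to 5.41 on the KO arrays. Snord17 differed by 0.55 (SE 0.13, adjusted p 0.0375), from 7.79 to 8.04 in WT to 8.22 to 8.97 in KO. Snord65 differed by 0.53 (SE 0.11, adjusted p 0.0265), from 7.53 to 8.14 in WT to 8.23 to 8.57 in KO. None of the 3 overlapped between the genotypes, and their calls held in 8, 8 and 10 of 15 or 16 other settings.

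Of the box H/ACA RNAs, Snora62 (E2), a guide of pseudouridylation in the ribosomal RNA precursor, rose in both segments. It was 5.01 and 4.79 in WT ascending and 6.04 and 6.04 in KO ascending. The descending values were 4.99 and 5.08 in WT and 6.25 and 6.08 in KO. The pools of 1 genotype agreed closely and the genotypes were about 1 log2 unit apart. The rise was 1.14 (SE 0.12, adjusted p 0.00791) in the ascending segment and 1.13 (SE 0.12, adjusted p 0.00985) in the descending segment. Over both it was 1.13 (SE 0.08, 2.19-fold, adjusted p 0.000747), and that call held in all 15 other settings. Without KO ascending replicate 1 the ascending call was lost (adjusted p 0.0551), and 3 of the 8 settings without an array ended the descending one.

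Snora33 has 2 probe sets. One of them rose over both segments by 0.72 (SE 0.17, adjusted p 0.0378), named after its values were seen, but its lowest KO array (5.62) lay below the highest WT array (5.63). This call held in 6 of 15 other settings and in 1 of 8 that left out an array. The other one differed by 0.32 (adjusted p 0.0993). The remaining box H/ACA features ranged from -0.38 (Snora30) to 0.53 (Snora23) and did not pass. Among them, Snora73a and Snora73b, copies of U17, which is needed to cut the ribosomal RNA precursor, differed by -0.02 and 0.02.

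Scarna10 (U85) was the Cajal body RNA that changed. It directs modification of the U5 spliceosomal RNA. It was 6.43 and 6.32 in WT ascending and 7.65 and 7.16 in KO ascending. The descending values were 6.44 and 6.85 in WT and 7.75 and 7.93 in KO. Every KO array was above every WT array. The rise was 1.03 (SE 0.19, adjusted p 0.0439) in the ascending segment, 1.20 (SE 0.19, adjusted p 0.0394) in the descending segment and 1.11 (SE 0.13, adjusted p 0.00546) over both. The call over both segments held in all 16 other settings. That of the ascending segment held in 3 of 17 and in none that left out an array, and that of the descending segment in 7 of 17. The other 7 Cajal body features ranged from -0.29 to 0.07 and did not pass.

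**Figure D3:**
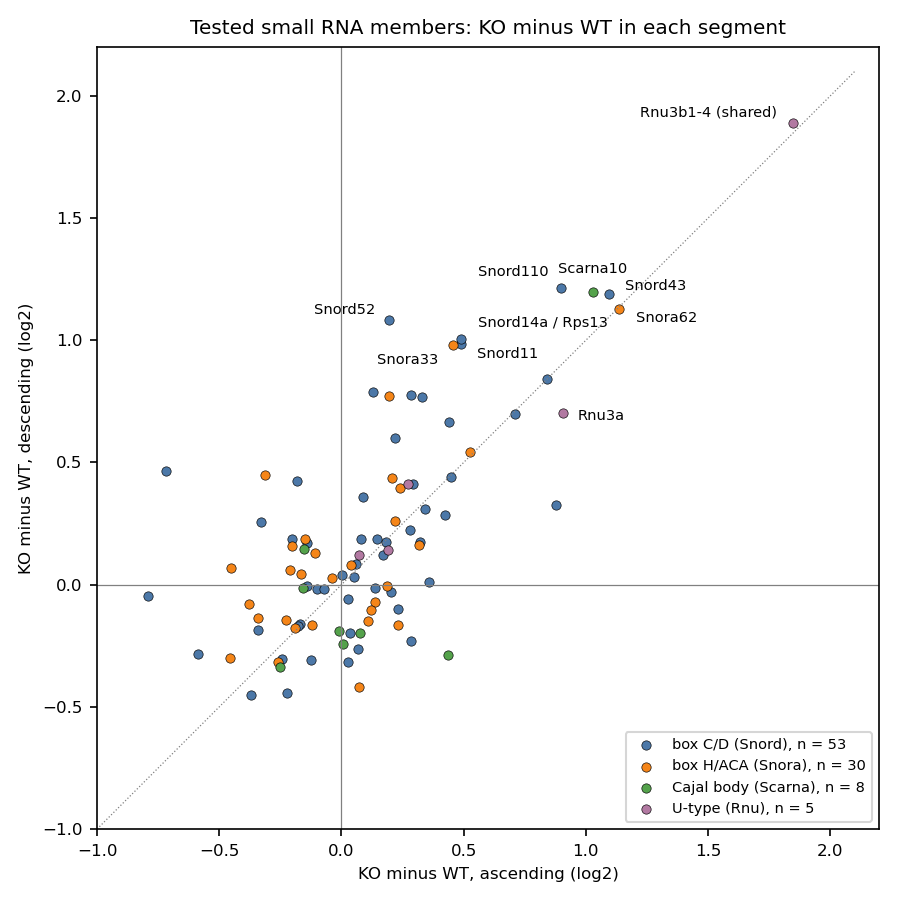
Log2 difference between KO and WT in the ascending segment (horizontal) and in the descending segment (vertical) for the 96 tested members, coloured by class, with the dotted line at equal differences. The shared Rnu3b value lies far from the rest at 1.85 and 1.89, Snora62, Scarna10 and Snord43 form a group near 1.1, and Snord52 lies to the left of the line.

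The segments, measured on different arrays, gave related differences. Pearson's r over the 96 members was 0.719 and Spearman's rho 0.608, against 0.597 and 0.529 over all features, where the points share arrays and pools and are not independent. Signs matched for 65 of 96 members (67.7%), close to the 67.8% of all features. The arrays of the genotypes did not overlap for 49 members in the ascending segment (36 higher, 13 lower in KO), or 51.0% against 48.8% of all features (25.2% higher, 23.6% lower). In the descending segment this held for 41 (28 higher, 13 lower), or 42.7% against 50.3% (25.1% higher, 25.3% lower). Over both segments it held for 16 (15 higher, 1 lower), or 16.7% against 16.5% (8.61% higher, 7.87% lower). The share of members that separated was thus near that of all features, and those that did were mostly higher in KO. The 1 that was lower over both segments was Snord13, named after its values were seen.

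Probe sets that stand for a small RNA alone were described apart from those shared with another gene. Of the 69 features with 1 small RNA symbol, 45 (65.2%) were above 0 over both segments and 11 (15.9%) rose. Of the 25 shared with another gene, 10 (40.0%) were above 0 and 1 (4%) rose, the probe set of Snord14a and Rps13. The medians of these groups were 0.07 and -0.04. Over all features 50.3% were above 0, 9.63% were called and 5.21% were called as higher. The share of all members above 0 moved with KO descending replicate 2, as given above. How the shares of these groups moved without that array was not examined.

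Each small RNA was next set against the gene in which it lies, a comparison added after the values had been seen. RefSeq places 66 tested members inside exactly 1 gene that has a tested probe set of its own, over 48 genes. For each gene the brightest tested probe set with that symbol alone was taken. Where on the genome that probe set lies was not checked, so it need not read the transcript around the small RNA. Some such probe sets were dim, such as Rplp2 at 4.07 to 4.75 and Rpl27a at 4.32 to 4.84. The difference between member and containing gene was fitted for each pair together with all other features (18899 values in all, of which 9.65% were called over both segments). Over both segments the signed difference between KO and WT was higher in the member than in its containing gene for 12 of the 66 pairs and lower for 0. In some of these pairs, such as that of Snord49b, the containing gene moved further from 0 than the member did. In each segment alone the signed difference was higher in the member for 3 pairs, against 1.8% of all values called in the ascending segment and 1.31% in the descending segment. Over both segments the members' differences spread wider (SD 0.38 over the 66 pairs) than those of the containing genes (SD 0.21). Members were also measured less precisely, with a median SE of 0.13 over all tested members against 0.09 over all features. The part of noise in the wider spread was not tested. The value of r over the 66 pairs was 0.23 (rho 0.169), where pairs share genes and arrays.

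Snora62 lies in Rpsa, a ribosomal protein gene whose brightest probe set did not pass. Rpsa was 10.77 and 10.79 in WT ascending and 10.63 and 10.80 in KO ascending. The descending values were 10.78 and 10.77 in WT and 10.71 and 10.78 in KO. Its arrays overlapped, and its difference was -0.05 (adjusted p 0.714). Snora62 exceeded it by 1.18 (SE 0.10, adjusted p 0.00135).

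Scarna10 lies in Ncapd2, which encodes a subunit of condensin, the complex that compacts chromosomes in dividing cells. Ncapd2 differed by 0.02 (adjusted p 0.888), and Scarna10 exceeded it by 1.09 (SE 0.14, adjusted p 0.00642). The containing gene of 3 RNAs, the noncoding 2410006H16Rik, fell. It was 11.63 and 11.43 in WT ascending, 10.96 and 11.10 in KO ascending, 11.43 and 11.39 in WT descending and 10.73 and 11.02 in KO descending, a difference of -0.52 (SE 0.09, adjusted p 0.0157). Its Snord65 rose, exceeding it by 1.05 (SE 0.11, adjusted p 0.00362). Its Snord49a and Snord49b differed by 0.45 (adjusted p 0.0568) and 0.09 (adjusted p 0.674), and exceeded it by 0.97 (adjusted p 0.0142) and 0.61 (adjusted p 0.00534).

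Several further pairs showed the same split. Snord52 exceeded 1110038B12Rik, whose difference was -0.32 (adjusted p 0.0564), by 0.96 (SE 0.14, adjusted p 0.00898). Snord43 exceeded Rpl3 by 0.94 (SE 0.21, adjusted p 0.0324). The shared probe set of Snord14a exceeded the probe set of Rps13 alone by 0.79 (SE 0.15, adjusted p 0.0195), and one Snora33 probe set exceeded Rps12 by 0.76 (SE 0.17, adjusted p 0.0348). Each of these containing genes encodes a ribosomal protein except 1110038B12Rik. Smaller excesses passed for Snord15b with Rps3 (0.54), Snord123 in Snhg18 (0.49) and Snora41 in Eef1b2 (0.38).

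Snord11 was different. Its containing gene Nop58, a core protein of the box C/D particle, also rose. Nop58 was 8.44 and 8.46 in WT ascending, 8.99 and 9.11 in KO ascending, 8.35 and 8.36 in WT descending and 8.99 and 8.79 in KO descending. Its genotypes did not overlap, and it rose by 0.57 (SE 0.08, adjusted p 0.00719), which Snord11 exceeded by 0.17 (adjusted p 0.476). Snord110 and its containing gene Nop56, another core protein of the box C/D particle, rose together too (Nop56 by 0.31, adjusted p 0.0464). Snord110 exceeded Nop56 by 0.75 (SE 0.23) without passing (adjusted p 0.0819). The pair of Snord17 and its containing gene Snx5 did not pass either. Snx5 was 8.27 to 8.37 on the WT arrays and 8.47 to 8.58 on the KO arrays.

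**Figure D4:**
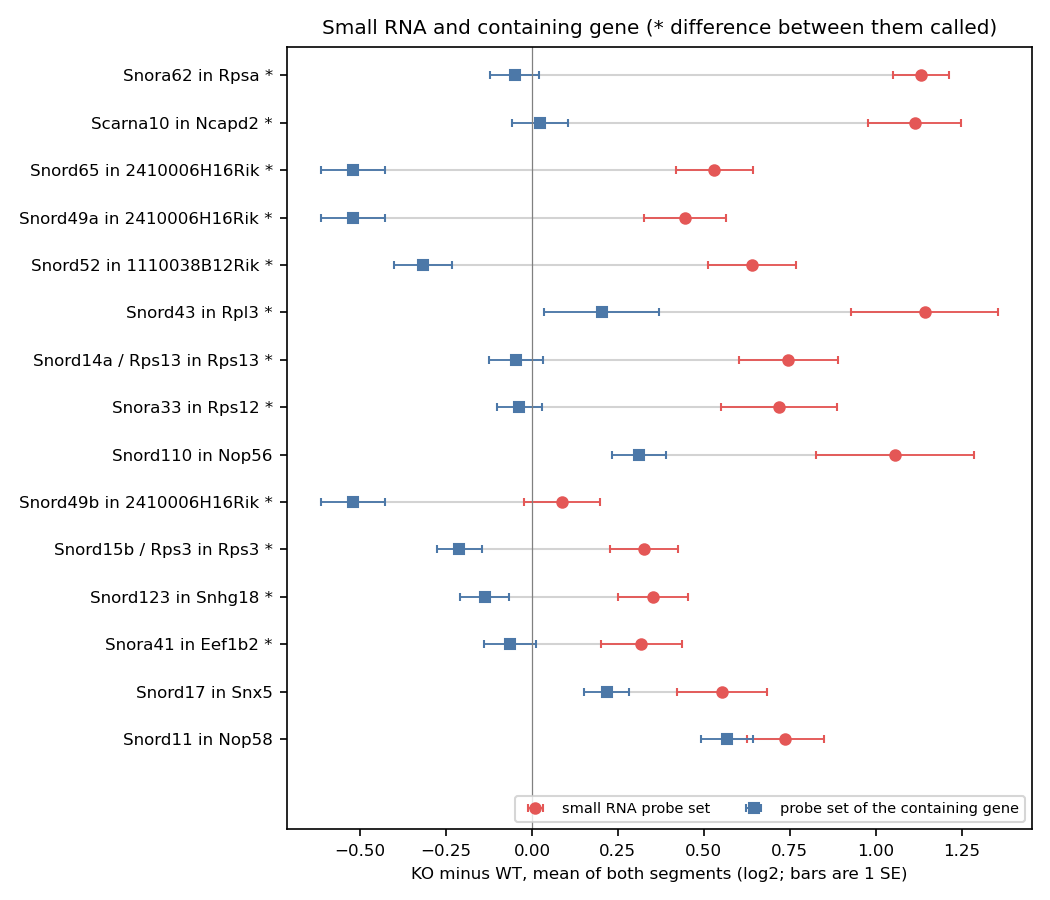
Difference between KO and WT over both segments for small RNAs (circles) and for the gene that contains each (squares), with bars of 1 SE, for pairs in which the member rose or the pair differed; a star marks pairs whose difference passed. Squares of Rpsa and Ncapd2 lie near 0 with circles above 1, those of 2410006H16Rik lie at -0.52, and those of Nop58 and Snord11 overlap within their bars.

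Probe sets of small RNAs in 1 gene did not always move together. In Rpl13a, 4 members were measured. Over both segments Snord35a differed by 0.84, the probe set shared by Snord33, Mir5121 and Rpl13a by 0.25, that of Snord32a and Rpl13a by 0.07, and that of Snord34 and Rpl13a by -0.42. All but that of Snord35a also carry the symbol Rpl13a, so their values cannot be assigned to the small RNA alone. The probe set of Snord34 and Rpl13a was 7.0 and 6.86 in WT ascending and 6.13 and 6.14 in KO ascending. In the descending segment it was 6.72 and 6.13 in WT and 6.29 and 6.48 in KO. The genotypes were apart in the ascending segment and overlapped in the descending one. Its ascending difference of -0.79 (SE 0.18) did not pass (adjusted p 0.0746), and it did with the 50th percentile as the filter (adjusted p 0.0386). The Snord35a value exceeded that of Snord34 and Rpl13a by 1.26 (SE 0.17, adjusted p 0.00725), and that of Snord33, Mir5121 and Rpl13a did so by 0.67 (SE 0.09, adjusted p 0.00737).

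Such differences were fitted for 31 pairs of members, the 2 U3 values of separate genes included. Over both segments 7 passed, against 9.65% of all values. Beside the U3 pair they lay in Rpl13a, Rpl3 and Rps3a1, and those in Rpl13a share members. In the other genes no pair passed. Each passing pair in Rpl13a included a probe set that also carries Rpl13a. Among the pairs that passed, only those in Rpl3 and Rps3a1 compared probe sets of single small RNAs within 1 gene. Beside those named, Snord35a exceeded the probe set of Snord32a and Rpl13a by 0.77 (adjusted p 0.0439), and that of Snord33, Mir5121 and Rpl13a was below Snord35a by -0.59 (adjusted p 0.0317). In Rpl3, Snord83b was below Snord43 by -0.79 (SE 0.17, adjusted p 0.0312). In Rps3a1, Snord73a exceeded Snord73b by 0.73 (SE 0.13, adjusted p 0.0174). By contrast, none of the 6 pairs among Snora16a, Snora44, Snora61 and Snord99 in Snhg12 passed.

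The proteins that make and carry these RNAs were described from lists, beside a median of 0.00 and 9.63% called over all features. Of 11 tested proteins of the box C/D particle and its assembly, 3 rose over both segments and 0 fell, with a median of 0.22. These were Nop58 (0.57), Nolc1 (0.52, adjusted p 0.0103), a nucleolar phosphoprotein that binds both classes of particle, and Nop56 (0.31). Of 6 proteins of the box H/ACA particle, 1 rose, Nop10 (0.36, adjusted p 0.0238), and the median was 0.11. None of 10 Cajal body factors and none of 16 proteins of the spliceosomal particles passed (medians 0.05 and 0.03).

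Among 17 factors that transcribe and trim the spliceosomal RNAs, 1 rose, Snapc1 (0.29, adjusted p 0.0378), a subunit of the complex that binds their promoters. Of 5 export and cap factors 1 rose, Ncbp2 (0.57, adjusted p 0.0148), the small subunit of the nuclear cap-binding complex. Of 10 proteins of the minor spliceosome and of U7, Slbp (0.41, adjusted p 0.0135), which binds the stem-loop of histone messages, rose and Rnpc3 (-0.33, adjusted p 0.0334) fell. Of 20 factors of RNA polymerase I and ribosomal RNA processing, Bop1 (0.40) and Nop2 (0.32) rose and Taf1b (-0.33) fell. Slbp is a gene of dividing cells, and 4 of 7 markers of cycling cells rose on the same arrays, as given above. The part of cycling cells in the rise of Slbp or of the other factors was not tested.

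The list of 39 tested genes known to contain small nucleolar RNAs had a median of -0.05, with 4 that rose and 3 that fell. Nop58, Snhg14 (-0.65, adjusted p 0.0176) and Ppan (0.44, adjusted p 0.0199) had the smallest p-values. The others, named after their values were seen, were Nop56 and Rian (0.50), which rose, and Snhg5 (-0.47) and Snhg6 (-0.31), which fell. Snhg14 was 6.26 and 6.07 in WT ascending and 5.10 and 5.12 in KO ascending. Its descending values overlapped between the genotypes, at 5.76 and 6.28 in WT and 5.71 and 5.85 in KO.

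The values shared by Snord116l1, Snord116l2 and Gm26504, called the Snord116 probe set here, gave no clear difference. The Snord116 genes lie in Snhg14, in the imprinted region expressed in neurons from the paternal copy. The probe set was 7.28 and 4.15 in WT ascending, 5.97 and 7.88 in WT descending, 5.83 and 5.15 in KO ascending and 6.04 and 6.92 in KO descending. In WT the pools of 1 group lay further apart than the groups did, while in KO the arrays of the segments did not overlap. The difference of the genotypes was -0.33 (SE 0.68, adjusted p 0.804).

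Between the segments, 0 members passed in WT or in KO (limma), against 1.26% of all features in WT (0.457% higher in the ascending segment, 0.798% lower) and 1.16% in KO (0.479% higher, 0.686% lower), and 9 in each had an unadjusted p under 0.05 (9.38%, against 12.0% of all features in WT and 11.6% in KO). The arrays of the segments did not overlap for 38 members in WT (30 higher, 8 lower), against 41.9% of all features (20% higher, 21.9% lower). In KO this held for 32 (20 higher, 12 lower), against 40.8% (20.5% higher, 20.3% lower). In WT 71 of 96 members (74.0%) were higher in the ascending segment, against 49.2% of all features, with a median of 0.16 against -0.00. Without WT descending replicate 1, the array with the lowest members, the share was 63.5% and the median 0.06. In KO 59 (61.5%) were higher in the ascending segment, but 41.7% without KO descending replicate 1 and 74.0% without replicate 2. Snora69 had the largest WT difference with separate arrays, 1.04 (SE 0.28, adjusted p 0.160), from 5.52 and 4.72 in the ascending segment to 4.12 and 4.04 in the descending segment. It was followed by Snord110 (0.71), Snord52 (0.62) and the probe set of Snord14a and Rps13 (0.53), with adjusted p-values of 0.451, 0.201 and 0.353.

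In KO the largest differences with separate arrays belonged to the Snord116 probe set (-0.99, adjusted p 0.801), Snord61 (-0.97, adjusted p 0.426), Snord92 (0.60, adjusted p 0.370) and Snora69 (0.52, adjusted p 0.553). Over both genotypes 1 member was called, Snord88a, higher in the ascending segment, against 3.74% of all features called (1.54% higher, 2.2% lower). The arrays of the segments were apart for 4 members, all of them higher, against 7.24% of all features (3.25% higher, 3.99% lower). It was 4.89 and 4.96 in WT ascending, 4.58 and 4.48 in WT descending, 4.91 and 4.80 in KO ascending and 4.46 and 4.57 in KO descending. The segments did not overlap, but the difference was small, 0.37 (SE 0.07, adjusted p 0.0319), and the call held in 4 of 15 other settings and in none that left out an array. Snora69 differed by 0.78 (SE 0.20, adjusted p 0.0807). Both probe sets of Scarna17 were higher on every ascending array, by 0.29 and 0.25, without passing (adjusted p 0.346 and 0.380).

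The change of the genotype difference between segments passed for 0 members and for 0% of all features (limma), and 6 members (6.25%) had an unadjusted p under 0.05, against 5.36% of all features. The largest such changes were those of Snord61 (-1.18, SE 0.59), Snord52, Snora75 (-0.76, SE 0.44) and the probe set of Snord34 and Rpl13a (-0.75, SE 0.26), with adjusted p-values of 0.875 to 0.936.

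The remaining probe sets shared with another gene that the naming rule picked did not pass, and the other gene need not contain the small RNA: Snord4a lies in Rpl23a. In the ascending segment KO and WT differed by -0.34 for Snord4a with Tlcd1, 0.34 for Snord15b with Rps3 and -0.34 for Snora52 with Rplp2. In the descending segment the difference was 0.42 for Snord57 with Nop56. Between the segments of KO aortas, the difference was 0.40 for Snora5c with Tbrg4 and 0.39 for Snord2 with Eif4a2.

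The 22 members below 4.15 comprised 12 box C/D, 7 box H/ACA, 1 Cajal body and 2 U-type features. Among them were Snord37, Snord70, Snora15, Rnu5g and the probe set of Rnu7 and Grcc10, where Rnu7 is the RNA that matures histone messages. They were fitted once with no filter, where 5.45% of 25070 features were called over both segments. Of the 22, 0 passed in either segment alone and 2 passed over both. Their values are given with the results for a closer look.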

How the data were processed

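The deposited values are log2 intensities. The authors used Affymetrix Expression Console and RMA, per the submitters' processing notes, on total RNA amplified and labelled with NuGEN kits, per the labels' protocols. Software versions were not given. RMA shares 1 scale between arrays, so differences are relative to the other probe sets. Symbols came from GEO's platform table (23521 probe sets with 1 symbol, 1814 with several, 16010 with none). Features were probe sets with a symbol, identical values merged, with a mean at or above the 25th percentile. A linear model with 1 coefficient per group over 8 arrays was fitted with limma 3.58.1 (R 4.3.3) in 7 comparisons, with Benjamini-Hochberg adjustment, and was tested on simulated data. Residual degrees of freedom were 4 and prior ones 3.90. Replicate numbers were not taken as pairs. Containing genes came from RefSeq gene positions, and their probe sets from the gene symbol. Named were, per comparison, up to 8 called members in each direction by adjusted p, the 4 largest with separate arrays where under 4 were called (for the interaction, the 4 largest), U-type and Cajal body members called or over 1 log2, and up to 10 features shared with another gene; from lists, up to 3 genes by smallest p. Members and lists were chosen with earlier results of these data known. Alternatives changed the filter, the prior, the scaling, the block, the features and the arrays. Figures used matplotlib 3.10.9 (Python 3.11.15).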

Additional observations from a re-analysis of the deposited data

Results flagged for a closer look

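In all, 2 members below the level filter differed between the genotypes in the fit without a filter, where 5.45% of all features were called over both segments. Snord37 was 2.95 and 3.26 in WT ascending, 4.54 and 5.37 in KO ascending, 3.35 and 2.38 in WT descending and 4.17 and 5.21 in KO descending. The genotypes did not overlap, and the difference was 1.84 (SE 0.30, adjusted p 0.0165, limma). Snord85 was 3.83 to 3.95 on the WT arrays and 4.07 to 4.43 on the KO arrays, a difference of 0.35 (SE 0.07, adjusted p 0.0307).

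Some members moved in opposite directions in 2 groups on every array, and none of these differences passed the interaction test. Snord11 was 0.24 higher in the ascending than in the descending segment in WT and -0.26 in KO (interaction adjusted p 0.934). The probe set of Snord34 and Rpl13a was 0.50 in WT and -0.25 in KO (adjusted p 0.875), and that of Snord67 and Ckap5 was 0.39 in WT and -0.20 in KO (adjusted p 0.931). The probe set of Snora5c and Tbrg4 differed between KO and WT by 0.23 in the ascending segment and by -0.17 in the descending segment (adjusted p 0.919).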

How the results depend on the processing

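The counts of members called in KO against WT (3 in the ascending segment, 5 in the descending segment, 13 over both) and between segments over both genotypes (1) changed with the setting. With a trended, robust prior they were 5, 10, 20 and 3. With all probe sets and no filter they were 1, 1, 3 and 0. Without the level filter the descending count was 2. With only the arrays compared, the ascending and descending counts were 0 and 2. The ascending difference of the Snord34 and Rpl13a probe set also passed with that prior and without either WT descending array. With each array left out in turn the ascending count ran from 1 to 3, the descending one from 1 to 4, that over both segments from 5 to 13, and that between segments from 0 to 1. With the replicate number as a block they were 3, 4, 15 and 0. Deviations of like-numbered pools correlated from -0.26 (WT ascending with WT descending) to 0.19 (WT descending with KO descending). With 1 difference between replicates in each group, these values cannot decide whether like-numbered pools shared pups. With the WT descending numbers crossed in the block, the WT segment count was 0. The members that differed from their containing gene (3, 3 and 12) numbered 0, 0 and 4 with all probe sets, and 7 (50th percentile filter) or 5 (single-symbol probe sets) in the descending segment; without an array they ran from 0 to 2, 0 to 5 and 6 to 12. The WT segment difference of the Snord116 probe set, -1.21, ran from -2.77 (without WT ascending replicate 1) to 0.35 (without WT ascending replicate 2). In the other settings the sign of each named member was kept. The cause of these changes was not tested. Each group had 2 arrays, which limits the precision of all values.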
